A study of Mus musculus with 12 samples.

Results

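Chemokines and their receptors were followed in RNA-seq of whole epididymal white adipose tissue (eWAT), the fat pad beside the epididymis, of C57BL/6 mice. Members were taken by gene symbol: those that start with Ccl, Ccr, Cxcl or Cxcr followed by a number, plus Cx3cl1, Cx3cr1, Xcl1, Xcr1 and Ackr1 to Ackr4. Of 62 such symbols, 52 had at least 0.2 CPM (a count set against the total of its library) in at least 3 of the 12 libraries and are the members. They are 32 ligands, 16 receptors and 4 atypical receptors among 16735 genes tested. Libraries came from TET KO (TKO) mice on high-fat diet (HFD_TKO), wild-type mice on high-fat diet (HFD_WT), TKO mice on normal diet (ND_TKO) and wild-type mice on normal diet (ND_WT), with 3 biological replicates each according to the labels. The series title places the loss of the TET proteins, which oxidise methylated cytosine in DNA, in adipocytes, whereas the libraries hold the RNA of every cell of the pad. The promoter driving the deletion, the exons removed and the age of the mice are not given in the sources used here. The comparisons ask how the genotype and the diet each moved these genes, and whether the genotype changed the response to the diet.

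Chemokines are small secreted or membrane-held proteins that guide leukocytes along gradients. They signal through G-protein-coupled receptors on the moving cell, and most receptors answer to several ligands. Atypical receptors bind chemokines without the usual G-protein signal and clear or carry them. In adipose tissue the family is known for bringing monocytes and other leukocytes into the pad in obesity.

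Recovered reads per library ran between 20973140 and 25606629, so that 3 reads were worth between 0.117 and 0.143 CPM. Tet1 lay between 1.65 and 3.07 CPM in HFD_TKO, against 0.841 to 0.996 CPM in HFD_WT, and between 2.22 and 2.98 CPM in ND_TKO, against 0.415 to 1.48 CPM in ND_WT. It was higher in TKO on HFD (log2 difference 0.76, limma adjusted p = 0.0097) and on ND (0.97, limma adjusted p = 0.019). Tet2 and Tet3 were not called between the genotypes on either diet. These totals over the whole gene in whole tissue therefore did not show a loss of TET transcripts, and HFD_TKO and ND_TKO stand throughout for the libraries so labelled. Markers of adipocytes were abundant in every library, with sums over 8 genes of 27917 to 29718 CPM in HFD_TKO, 16140 to 17551 CPM in HFD_WT, 35565 to 40303 CPM in ND_TKO and 32742 to 36206 CPM in ND_WT.

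On HFD most of the family was lower in TKO. Of the 52 members, 29 were lower and 8 higher in HFD_TKO than in HFD_WT at a limma adjusted p under 0.05. That is 71.2% of members, beside 44.3% of all genes tested (30.1% lower and 14.2% higher). The median log2 difference, taken on log2(CPM + 1), was -0.79 over the members and -0.10 over all genes. Library scaling by TMM moved the median of all genes by 0.10 on this contrast, giving 3580 genes higher and 3914 lower, against 2383 higher and 5034 lower without it, while 8 members were higher and 28 lower. The diet raised the family in WT: 31 members were higher and 7 lower in HFD_WT than in ND_WT, beside 36.0% and 19.3% of all genes, and 55.3% called in all, with medians of 1.01 over members and 0.12 over all genes. In TKO the diet raised 12 members and lowered 1, beside 20% of all genes called (14.7% higher and 5.34% lower), with medians of 0.19 and 0.06. With TMM, which moved the median of all genes by -0.12 between the diets in WT, 4666 genes were higher and 4448 lower there, against 6030 and 3223 without it. In TKO 1501 genes were higher and 1363 lower on HFD with TMM, against 2453 and 894 without it.

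The response to the diet differed between the genotypes for 27 members. For 22 of them the response was smaller or more negative in TKO and for 5 it was more positive, beside 26.9% of all genes called (17.8% and 9.12%). Of the 31 members higher on HFD in WT, 11 were also higher on HFD in TKO. Over all genes 6030 were higher on HFD in WT and 2453 in TKO. How many of all genes were shared was not computed, so the count of 11 is a description. On ND, by contrast, no member was called between TKO and WT, beside 5.07% of all genes, 1.95% higher and 3.12% lower (326 and 522 genes, or 491 and 407 with TMM). The median log2 difference on ND was -0.04 over the members and -0.05 over all genes. At an unadjusted p under 0.05 limma gave 5 members on ND, edgeR 7 and DESeq2 9, and after adjustment edgeR called 0 and DESeq2 1, Ccl11. Without ND_WT replicate 3 limma called 4 on ND, which were Cxcl11, Ccl11, Cxcl14 and Cxcr4. Of these, Cxcl11 passed the filter only through ND_WT, so its difference is a description. The comparisons on HFD and within each genotype share libraries, so their counts are not independent of each other.

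**Figure D1:**
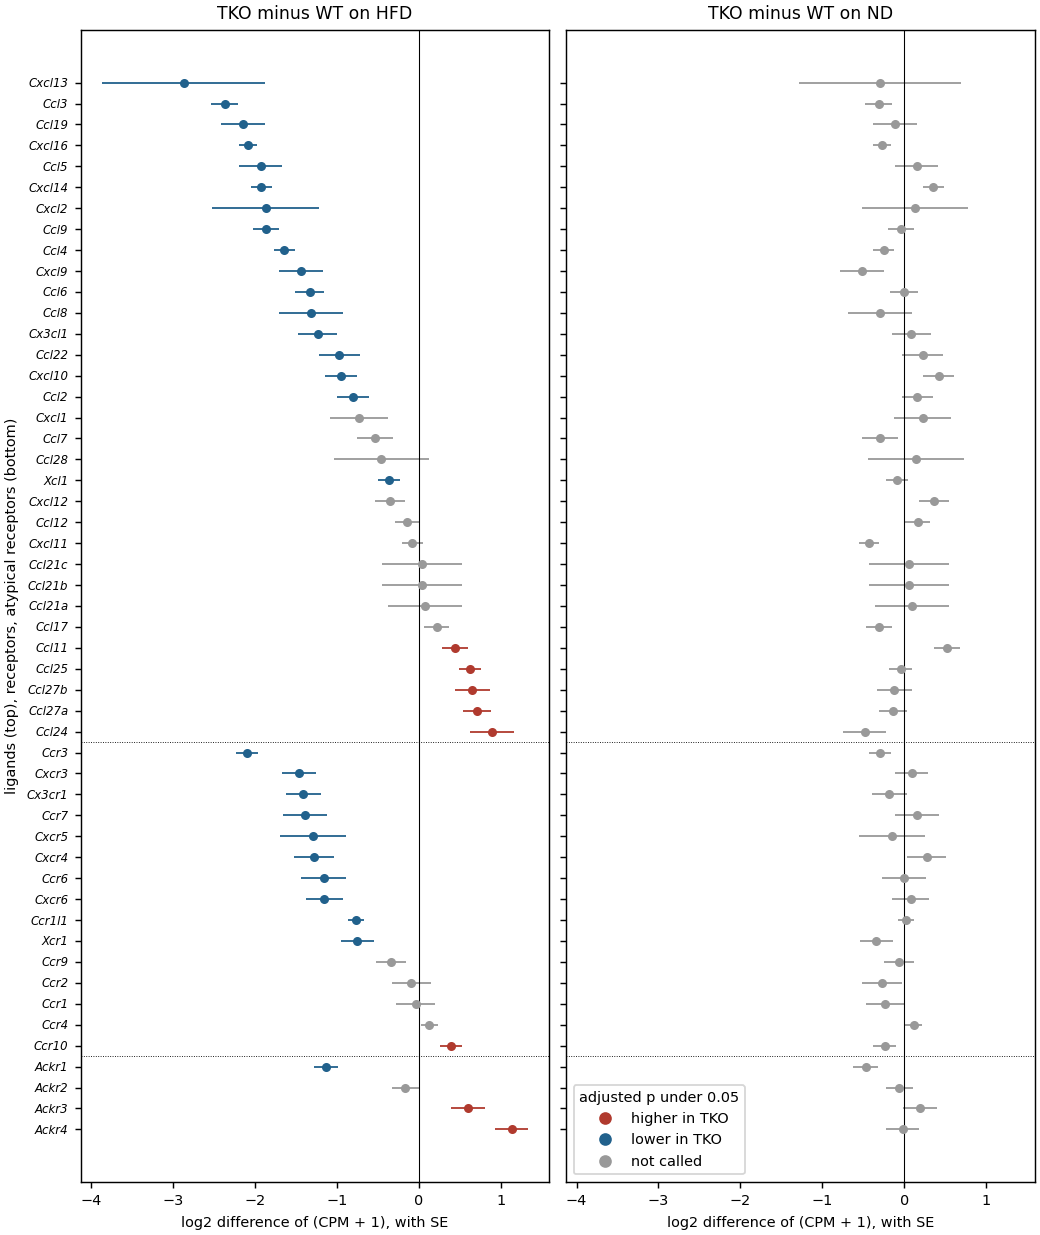
Log2 difference of (CPM + 1) with its SE for each of 51 members, TKO minus WT on HFD (left) and on ND (right), with ligands at the top, then receptors and atypical receptors. Colour marks an adjusted p under 0.05. On HFD 28 members lie left of 0 in blue and 8 right of 0 in red, and on ND all points are grey.

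Levels of several leukocyte markers moved in the same libraries. Of 10 macrophage markers 9 were lower in HFD_TKO than in HFD_WT, with sums of 1259 to 1442 CPM in HFD_TKO, 5153 to 5947 CPM in HFD_WT, 701 to 976 CPM in ND_TKO and 846 to 1284 CPM in ND_WT. Of 8 markers of lipid-associated macrophages 7 were lower in HFD_TKO than in HFD_WT and 1 was higher, Lpl, which adipocytes also express. Without Lpl these markers summed to 430 to 694 CPM in HFD_TKO and 4024 to 5388 CPM in HFD_WT. With Lpl the order was reversed, with sums of 19090 to 21047 CPM in HFD_TKO and 13520 to 16346 CPM in HFD_WT. On HFD, 9 of 10 markers of T and NK cells, 7 of 7 of B and plasma cells and 5 of 6 of mast cells were lower in TKO, while none of 6 endothelial markers was called. Of 7 dendritic cell markers 2 were higher and 2 lower (median 0.06), with sums of 74.0 to 85.7 CPM in HFD_TKO and 69.8 to 76.4 CPM in HFD_WT. The sums were 7.31 to 9.70 CPM in HFD_TKO against 23.0 to 73.5 CPM in HFD_WT for T and NK cells, and 27.3 to 36.7 CPM in HFD_TKO against 207 to 268 CPM in HFD_WT for mast cells. Of 8 monocyte and neutrophil markers 6 were tested, and 4 were lower and 0 higher in HFD_TKO than in HFD_WT. All 8 summed to 31.8 to 41.2 CPM in HFD_TKO and 80.4 to 100 CPM in HFD_WT. Among them, the neutrophil gene Ly6g was under 0.2 CPM in every library. In bulk tissue, fewer cells of a type and less RNA per cell cannot be told apart, and the part of these marker changes in the results below was not tested.

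Ligands and receptors were then set side by side. Without the near-identical Ccl21 and Ccl27 copies, ligands summed to 611 to 709 CPM in HFD_TKO, 1517 to 1571 CPM in HFD_WT, 441 to 551 CPM in ND_TKO and 428 to 545 CPM in ND_WT. Receptors summed to 88.9 to 108 CPM in HFD_TKO, 197 to 258 CPM in HFD_WT, 51.2 to 78.3 CPM in ND_TKO and 63.9 to 112 CPM in ND_WT. Both sums stood apart in HFD_WT, while the other 3 groups lay closer together. Ccl9 and Ccl6 made up a large part of the ligand sum, with means of 530 and 457 CPM in HFD_WT and 146 and 181 CPM in HFD_TKO. On HFD, 30.1% of all genes were lower and 14.2% higher in TKO. Of 32 ligands 17 were lower and 5 higher there, with a median log2 difference of -0.77. Of 16 receptors 11 were lower and 1 higher, with a median of -1.16. The difference between these medians, with the copies kept, was 0.39 and had no test. Without the copies the median of the 27 other ligands was -0.97 and the difference 0.19. With the copies kept, the difference stayed above 0 under the alternatives computed for it. It was 0.23 without HFD_WT replicate 1, 0.66 without replicate 2, 0.074 without replicate 3 and 0.69 with a pseudocount of 0.25. It was not computed with edgeR, with DESeq2, with a replicate block or with only the groups compared. In WT the diet raised 19 ligands and 11 receptors (medians 1.41 and 1.01), beside 36.0% of all genes. In TKO it raised 8 ligands and 2 receptors (medians 0.15 and 0.24), beside 14.7% of all genes. The share of receptors raised in TKO, 12.5%, was not above that of all genes. The receptors Ccr1l1, Ccr6 and Ccr9 passed the filter only through HFD_WT, so their membership already required a level there. All of them are among the 11 receptors raised in WT, and Ccr1l1 and Ccr6 are among the 11 lower in HFD_TKO. Those calls are a description. Without the members that passed through 1 group or genotype, the difference between the medians was 0.48.

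Among the CC ligands, 5 genes that lie side by side on chromosome 11 (83525778 to 83664683, GRCm38.p6) moved together. They are Ccl5, Ccl9, Ccl6, Ccl3 and Ccl4, all higher on HFD in WT and all lower in HFD_TKO than in HFD_WT, with a median log2 difference of -1.87 between the genotypes. Ccl9 and Ccl6, are mouse ligands of Ccr1. Ccl9 had 128, 132 and 179 CPM in HFD_TKO, against 507, 572 and 512 CPM in HFD_WT. On ND, Ccl9 had 86.6, 87.3 and 63.3 CPM in ND_TKO, against 69.3, 77.6 and 96.4 CPM in ND_WT. The HFD_WT libraries held about the same high level and no other library came near it. Ccl9 differed by -1.87 (SE 0.16, limma adjusted p = 2.6e-06) between TKO and WT on HFD. Ccl6 had 175, 166 and 201 CPM in HFD_TKO, against 415, 431 and 524 CPM in HFD_WT. On ND, Ccl6 had 135, 147 and 113 CPM in ND_TKO, against 95.9, 145 and 162 CPM in ND_WT. Ccl6 differed by -1.33 (SE 0.17, limma adjusted p = 7.2e-05) on HFD, and the groups did not overlap.

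Ccl3, Ccl4 and Ccl5 are inflammatory ligands made by macrophages and lymphocytes, and Ccl3 and Ccl5 bind Ccr1. Ccl3 had 0.652, 1.06 and 1.23 CPM in HFD_TKO, against 7.93, 10.7 and 9.09 CPM in HFD_WT. On ND, Ccl3 had 0.508, 0.186 and 0.312 CPM in ND_TKO, against 0.382, 0.830 and 0.776 CPM in ND_WT. The lowest HFD_WT library was several times the highest of the other groups. Ccl3 differed by -2.37 (SE 0.17, limma adjusted p = 6.2e-07) on HFD. Ccl4 had 0.0935, 0.368 and 0.0918 CPM in HFD_TKO, against 2.77, 2.7 and 2.55 CPM in HFD_WT. On ND, Ccl4 had 0.0928, 0.0468 and 0.134 CPM in ND_TKO, against 0.0958, 0.369 and 0.457 CPM in ND_WT. Several of these values outside HFD_WT are worth 3 reads or fewer, so the difference of -1.64 (SE 0.13, limma adjusted p = 1.5e-06) rests on HFD_WT being detected. Ccl5 had 1.86, 2.25 and 2.24 CPM in HFD_TKO, against 11.7, 6.59 and 16.2 CPM in HFD_WT. On ND, Ccl5 had 2.54, 2.27 and 2.09 CPM in ND_TKO, against 1.29, 1.89 and 2.92 CPM in ND_WT. The HFD_WT libraries varied among themselves, replicate 2 being the lowest, but none reached the levels of HFD_TKO. Ccl5 differed by -1.93 (SE 0.26, limma adjusted p = 9.5e-05). The diet response differed between genotypes for each of the 5, with interaction log2 values between -2.08 for Ccl5 and -1.33 for Ccl6. In TKO the diet raised Ccl9 (0.88, limma adjusted p = 0.0042) and Ccl3 (0.56, limma adjusted p = 0.033). The Ccl3 call in TKO was lost without ND_TKO replicate 2 or 3 or without HFD_TKO replicate 2 or 3. In the RefSeq annotation the spans of Ccl3 and Ccl4 overlap, so reads there may not be assigned cleanly.

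The other CC run of chromosome 11 (82035577 to 82116799) holds Ccl2, Ccl7, Ccl11, Ccl12 and Ccl8. The diet raised all 5 in both genotypes, and between TKO and WT on HFD 2 were lower and 1 higher, with a median log2 difference of -0.53. Ccl2 and Ccl7 attract monocytes through Ccr2. Ccl2 had 11.8, 9.19 and 13.6 CPM in HFD_TKO, against 22.1, 23.8 and 16.7 CPM in HFD_WT. On ND, Ccl2 had 3.23, 3.2 and 2.76 CPM in ND_TKO, against 2.19, 2.17 and 3.74 CPM in ND_WT. Ccl2 was high in every HFD library and highest in HFD_WT, with no overlap. The difference was -0.80 (SE 0.19, limma adjusted p = 0.0047) between the genotypes on HFD, and HFD raised Ccl2 by 1.61 in TKO and 2.57 in WT. Its interaction was -0.96 (SE 0.27, limma adjusted p = 0.02).

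Ccl7 had 9.72, 4.82 and 7.72 CPM in HFD_TKO, against 10.7, 12 and 9.74 CPM in HFD_WT. On ND, Ccl7 had 1.80, 2.22 and 1.42 CPM in ND_TKO, against 1.91, 2.21 and 3.33 CPM in ND_WT. Both HFD groups exceeded both ND groups, and HFD_TKO lay under HFD_WT, replicate 1 only just. Ccl7 differed by -0.53 (SE 0.22, limma adjusted p = 0.069) on HFD, which was not called. Ccl8 had 35.1, 7.63 and 12.7 CPM in HFD_TKO, against 43.1, 37.0 and 38.4 CPM in HFD_WT. On ND, Ccl8 had 5.08, 5.70 and 2.93 CPM in ND_TKO, against 5.39, 5.67 and 5.93 CPM in ND_WT. For Ccl8, HFD_TKO replicate 1 lay near HFD_WT and the other HFD_TKO libraries well below it. The genotype difference of -1.32 (SE 0.39, limma adjusted p = 0.016) was lost with edgeR, with DESeq2, and without HFD_WT replicate 1 or HFD_TKO replicate 2 or 3. Ccl12, another mouse ligand of Ccr2, had 1.29 to 2.33 CPM in HFD_TKO and 1.73 to 2.12 CPM in HFD_WT, and the diet raised it in both genotypes (0.66 in TKO and 0.97 in WT). In TKO the diet call of Ccl8 was lost without ND_TKO replicate 3 and when only the libraries compared were fitted, that of Ccl12 without ND_TKO replicate 3, and that of Ccl11 with TMM, with edgeR, with no filter and without any of 7 single libraries.

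**Figure D2:**
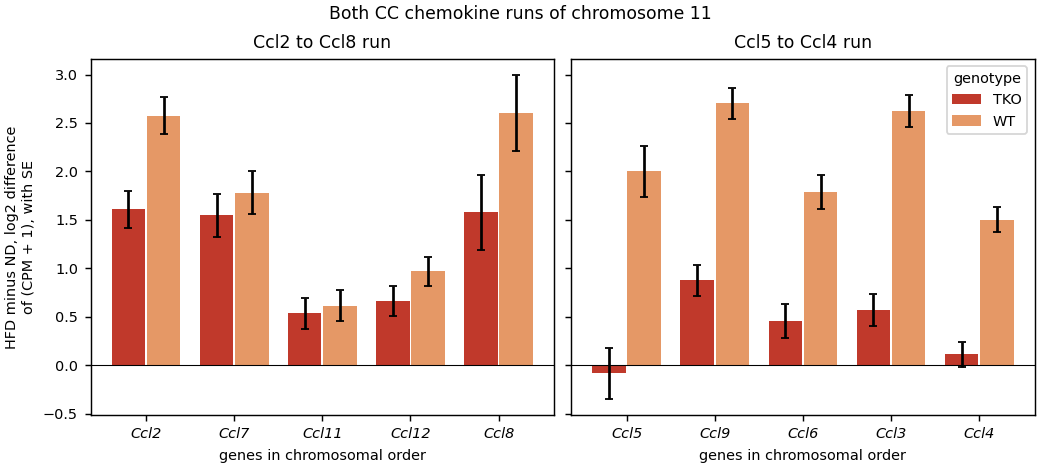
HFD minus ND log2 difference of (CPM + 1) with SE for the genes of both CC runs of chromosome 11, TKO in red and WT in orange, bars from 0. In the Ccl2 to Ccl8 run the bars of both genotypes are well above 0, and in the Ccl5 to Ccl4 run the TKO bars lie between -0.08 and 0.88 while those of WT lie between 1.5 and 2.71.

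Ccl11 and Ccl24 are eotaxins, which draw eosinophils through Ccr3. Ccl11 had 106, 98.6 and 118 CPM in HFD_TKO, against 73.9, 79.7 and 83.1 CPM in HFD_WT. On ND, Ccl11 had 75.6, 76.0 and 69.5 CPM in ND_TKO, against 42.7, 43.5 and 71.7 CPM in ND_WT. Ccl11 was highest in HFD_TKO, and ND_WT replicate 3 stood above its group. The difference of 0.44 (SE 0.16, limma adjusted p = 0.042) on HFD was lost without any 1 of the HFD_WT or ND_TKO libraries, without HFD_TKO replicate 1 or 3, and with no filter on low values. Ccl24 had 5.54, 8.27 and 8.86 CPM in HFD_TKO, against 3.24, 3.23 and 4.20 CPM in HFD_WT. On ND, Ccl24 had 4.94, 6.53 and 4.71 CPM in ND_TKO, against 6.63, 5.44 and 13.2 CPM in ND_WT. HFD_WT was the lowest group, and ND_WT replicate 3 was the highest library. Ccl24 differed by 0.89 (SE 0.26, limma adjusted p = 0.016) on HFD, and the call was lost without HFD_WT replicate 1 or 2 or HFD_TKO replicate 2 or 3. The receptor went the other way. Ccr3 had 0.466, 0.781 and 0.960 CPM in HFD_TKO, against 5.82, 6.86 and 6.49 CPM in HFD_WT. On ND, Ccr3 had 0.139, 0.279 and 0.0449 CPM in ND_TKO, against 0.334, 0.323 and 0.594 CPM in ND_WT. Ccr3 was high in HFD_WT and low in all other libraries, differing by -2.10 (SE 0.14, limma adjusted p = 4.7e-07) between TKO and WT on HFD.

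Among the CXC ligands, Cxcl14 and Cxcl16 separated HFD_WT from all other groups. Cxcl14 is a chemokine that attracts monocytes and dendritic cells. Cxcl14 had 6.65, 5.79 and 7.22 CPM in HFD_TKO, against 27.3, 30.5 and 25.1 CPM in HFD_WT. On ND, Cxcl14 had 3.32, 3.38 and 3.25 CPM in ND_TKO, against 1.96, 2.31 and 2.92 CPM in ND_WT. All HFD_TKO libraries lay between the ND groups and HFD_WT. The genotype difference on HFD was -1.92 (SE 0.13, limma adjusted p = 5.2e-07), the diet raised Cxcl14 by 0.80 in TKO and 3.08 in WT, and its interaction of -2.28 was the most negative of the called interactions. Cxcl16 had 11.9, 12.7 and 13.3 CPM in HFD_TKO, against 57.5, 61.1 and 51.8 CPM in HFD_WT. On ND, Cxcl16 had 11.5, 9.41 and 9.16 CPM in ND_TKO, against 12.8, 13.0 and 10.9 CPM in ND_WT. Cxcl16, a membrane-anchored ligand that also takes up oxidised lipoproteins, stood near ND level in HFD_TKO. It differed by -2.08 (SE 0.11, limma adjusted p = 1.1e-07) on HFD, the smallest adjusted p of the members there. Exons of Zmynd15 overlap Cxcl16 on the other strand, and Zmynd15 averaged 4.16 ± 0.552 CPM in HFD_TKO and 14.7 ± 0.722 CPM in HFD_WT (SD, n = 3 each). Whether counting used the strand is not given in the sources used here, so reads of overlapping genes may be shared.

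Cxcl16 signals through Cxcr6, found on T and NK cells. Cxcr6 had 1.21, 0.736 and 1.42 CPM in HFD_TKO, against 3.28, 2.57 and 5.67 CPM in HFD_WT. On ND, Cxcr6 had 1.38, 1.71 and 0.889 CPM in ND_TKO, against 0.906, 1.24 and 1.41 CPM in ND_WT. Cxcr6 was highest in HFD_WT without overlap and differed by -1.15 (SE 0.23, limma adjusted p = 0.0014). Cx3cl1, or fractalkine, is likewise held on the membrane and signals through Cx3cr1 on monocytes and macrophages. Cx3cl1 had 4.14, 5.38 and 2.74 CPM in HFD_TKO, against 9.92, 11.2 and 10.9 CPM in HFD_WT. On ND, Cx3cl1 had 2.91, 5.65 and 3.42 CPM in ND_TKO, against 4.77, 2.58 and 3.65 CPM in ND_WT. The HFD_WT libraries agreed closely with each other and lay above the rest. Cx3cl1 differed by -1.23 (SE 0.24, limma adjusted p = 0.0013) on HFD. Cx3cr1 had 2.7, 1.75 and 1.23 CPM in HFD_TKO, against 6.52, 4.74 and 8.83 CPM in HFD_WT. On ND, Cx3cr1 had 1.48, 1.07 and 0.934 CPM in ND_TKO, against 1.53, 1.52 and 1.28 CPM in ND_WT. Cx3cr1 followed the same order and differed by -1.41 (SE 0.21, limma adjusted p = 0.00022). Ligand and receptor of both pairs were thus lower in HFD_TKO, and none of the 4 was called between HFD and ND in TKO.

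Cxcl9, Cxcl10 and Cxcl11 are interferon-induced ligands of Cxcr3. Cxcl9 had 17.6, 23.9 and 17.7 CPM in HFD_TKO, against 59.6, 34.8 and 78.0 CPM in HFD_WT. On ND, Cxcl9 had 30.4, 31.0 and 24.9 CPM in ND_TKO, against 52.6, 45.3 and 29.6 CPM in ND_WT. Cxcl9 was lowest in HFD_TKO, and HFD_WT overlapped ND_WT. It differed by -1.44 (SE 0.27, limma adjusted p = 0.00099) between the genotypes on HFD, while it was not called between the diets in WT (0.39, limma adjusted p = 0.24). Cxcl10 had 3.72, 2.80 and 1.83 CPM in HFD_TKO, against 6.01, 5.53 and 7.01 CPM in HFD_WT. On ND, Cxcl10 had 3.23, 1.99 and 2.22 CPM in ND_TKO, against 1.72, 1.75 and 1.28 CPM in ND_WT. Cxcl10 was highest in HFD_WT and differed by -0.95 (SE 0.19, limma adjusted p = 0.0018). Art3, whose exons overlap Cxcl10 on the other strand, differed by -1.45 on HFD and by -2.49 on ND (limma adjusted p = 1.9e-05 and 7.4e-06), whereas Cxcl10 differed by 0.42 on ND (limma adjusted p = 0.23). Cxcr3, on activated T cells, had 0.977 to 1.33 CPM in HFD_TKO and 3.81 to 6.10 CPM in HFD_WT and differed on HFD by -1.46 (SE 0.20, limma adjusted p = 0.00012). Cxcl11 reached at most 0.716 CPM and passed the filter only through ND_WT.

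Cxcl1 and Cxcl2 draw neutrophils through Cxcr2, itself under the filter here. Cxcl1 had 2.14, 2.30 and 3.52 CPM in HFD_TKO, against 6.60, 8.36 and 1.99 CPM in HFD_WT. On ND, Cxcl1 had 0.831, 1.30 and 0.756 CPM in ND_TKO, against 0.668, 0.323 and 1.10 CPM in ND_WT. For Cxcl1, HFD_WT replicate 3 lay below every HFD_TKO library. Cxcl2 had 0.652, 1.33 and 2.01 CPM in HFD_TKO, against 13.0, 19.7 and 0.953 CPM in HFD_WT. On ND, Cxcl2 had 0.370, 0.696 and 0.178 CPM in ND_TKO, against 0.191, 0.461 and 0.183 CPM in ND_WT. Both were high in HFD_WT replicates 1 and 2 and low in replicate 3, which for Cxcl2 fell within the range of HFD_TKO. Cxcl1 was not called between the genotypes on HFD (-0.73, SE 0.35, limma adjusted p = 0.11). The difference in Cxcl2 was -1.87 (SE 0.65, limma adjusted p = 0.034), with overlapping groups, and it was lost without HFD_WT replicate 1 or 2, without HFD_TKO replicate 1 or 2, with no filter and when only the HFD libraries were fitted. Leaving out HFD_WT replicate 3 did not end that call.

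Promoters were searched for 3 short motifs, since members that moved together can be set beside their start sites. RefSeq windows of 250 bases before to 50 after the start (GRCm38.p6) were at hand for 39 of the 52 members. The NF-kB consensus, on both strands with overlapping matches merged, was found in 7 of the 39 (17.9%) and in 8.18% of 27025 promoters. The TATA box TATAAA, on the gene strand, was found in 9 (23.1%) and in 8.88% of all promoters. It began at -30 in Cxcr4, -31 in Ccl12, -32 in Ccl8 and -46 in Cxcl13. In Cx3cl1 and Ackr3 it began at -6 and -8, and in Cxcl9, Ackr4 and Ccl9 at -195, -185 and -92. Of these members Ackr3 and Ackr4 were higher in HFD_TKO than in HFD_WT, Ccl12 was not called there and the rest were lower. The ISRE core, GAAA then any 2 bases then GAAA, on both strands, was found in 3 (7.69%) and in 3.49% of all. A match describes the letters of this window and was not tested for use. The promoters of the neighbours Cxcl1 (chr5:90890995-90891294, plus strand) and Cxcl2 (chr5:90903649-90903948, plus strand) are shown for their shared pattern over the HFD_WT libraries. Those of Cxcl10 (chr5:92348840-92349139, minus strand), Ccl9 (chr11:83578587-83578886, minus strand) and Cxcl14 (chr13:56296502-56296801, minus strand) are shown as CXC and CC ligands that held a match and were higher in HFD_WT than in HFD_TKO. The Cxcl14 window lies inside the annotated span of the gene (56288643 to 56296811), so its start is not the outer end of that span. The NF-kB consensus was also found in Ackr2 and Ccr1, which were called in no comparison. The TATAAA match of Ccl9 began at -92 from the start. Each reads 5′ to 3′ on the gene strand. Capitals mark the NF-kB consensus in Cxcl1 and Cxcl2, the NF-kB consensus and ISRE core in Cxcl10, the NF-kB consensus and TATA box in Ccl9, and the ISRE core in Cxcl14.
Cxcl1: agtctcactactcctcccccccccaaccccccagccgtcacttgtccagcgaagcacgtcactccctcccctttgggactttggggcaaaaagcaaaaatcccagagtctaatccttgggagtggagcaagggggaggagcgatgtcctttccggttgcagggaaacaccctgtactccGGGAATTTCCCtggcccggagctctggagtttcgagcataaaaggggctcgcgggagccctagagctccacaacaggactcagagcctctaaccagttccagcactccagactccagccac
Cxcl2: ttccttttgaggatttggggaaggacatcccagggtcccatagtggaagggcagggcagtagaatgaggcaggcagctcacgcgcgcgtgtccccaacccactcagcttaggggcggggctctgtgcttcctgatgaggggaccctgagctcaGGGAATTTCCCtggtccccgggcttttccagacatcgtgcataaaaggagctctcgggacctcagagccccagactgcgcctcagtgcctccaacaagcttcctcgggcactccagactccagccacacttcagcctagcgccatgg
Cxcl10: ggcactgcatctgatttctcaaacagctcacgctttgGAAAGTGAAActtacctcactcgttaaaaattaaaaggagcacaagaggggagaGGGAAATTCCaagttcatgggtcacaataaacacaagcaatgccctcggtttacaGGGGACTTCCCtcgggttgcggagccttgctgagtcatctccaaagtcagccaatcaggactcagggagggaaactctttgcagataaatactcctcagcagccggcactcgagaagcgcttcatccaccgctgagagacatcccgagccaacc
Ccl9: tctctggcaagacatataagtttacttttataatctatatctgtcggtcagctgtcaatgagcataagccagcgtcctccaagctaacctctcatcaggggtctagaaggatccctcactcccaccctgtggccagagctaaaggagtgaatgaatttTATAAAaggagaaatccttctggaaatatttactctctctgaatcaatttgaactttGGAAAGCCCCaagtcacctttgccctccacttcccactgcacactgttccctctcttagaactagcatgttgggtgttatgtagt
Cxcl14: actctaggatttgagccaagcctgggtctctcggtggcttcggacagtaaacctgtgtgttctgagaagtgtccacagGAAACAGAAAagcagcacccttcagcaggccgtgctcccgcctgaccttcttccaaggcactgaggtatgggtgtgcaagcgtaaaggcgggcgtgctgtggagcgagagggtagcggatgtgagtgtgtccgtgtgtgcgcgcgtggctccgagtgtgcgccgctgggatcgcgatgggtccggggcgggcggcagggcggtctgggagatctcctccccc

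Cxcl12 is a constitutive stromal ligand with a signalling receptor, Cxcr4, and an atypical one, Ackr3, which takes it up. Cxcl12 had 145, 114 and 105 CPM in HFD_TKO, against 166, 162 and 135 CPM in HFD_WT. On ND, Cxcl12 had 126, 150.4 and 124 CPM in ND_TKO, against 116, 127 and 74.3 CPM in ND_WT. The groups overlapped on HFD, where Cxcl12 was not called (-0.36, SE 0.18, limma adjusted p = 0.14). Its rise with the diet in WT (0.57, SE 0.18, limma adjusted p = 0.019) was lost with TMM, edgeR and DESeq2, and without ND_WT replicate 3 or HFD_WT replicate 1 or 2. Cxcr4 had 18.5, 21.8 and 20.9 CPM in HFD_TKO, against 48.4, 46.7 and 58.3 CPM in HFD_WT. On ND, Cxcr4 had 8.86, 7.46 and 5.82 CPM in ND_TKO, against 5.10, 3.87 and 9.77 CPM in ND_WT. Cxcr4 stepped up with the diet in both genotypes, further in WT, and differed by -1.28 (SE 0.24, limma adjusted p = 0.001) on HFD. Ackr3 had 85.4, 76.1 and 87.3 CPM in HFD_TKO, against 53.7, 56.6 and 52.8 CPM in HFD_WT. On ND, Ackr3 had 40.8, 50.9 and 40.5 CPM in ND_TKO, against 38.1, 25.8 and 56.6 CPM in ND_WT. Ackr3 was highest in HFD_TKO and did not overlap HFD_WT. Its difference of 0.60 (SE 0.21, limma adjusted p = 0.034) was lost without any 1 of the HFD_WT libraries, without HFD_TKO replicate 1 or 3 and with no filter on low values. HFD raised Ackr3 in TKO by 0.90 (SE 0.21, limma adjusted p = 0.011), a call lost without ND_TKO replicate 3. In WT the diet difference was 0.50 (SE 0.21, limma adjusted p = 0.06).

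Ccl19 and the Ccl21 proteins guide Ccr7-bearing dendritic cells and T cells to lymphoid tissue. Ccl19 had 3.63, 2.25 and 2.19 CPM in HFD_TKO, against 19.3, 10.9 and 16.4 CPM in HFD_WT. On ND, Ccl19 had 3.42, 4.54 and 1.60 CPM in ND_TKO, against 3.24, 3.64 and 3.06 CPM in ND_WT. Ccl19 was high in HFD_WT alone and differed by -2.15 (SE 0.27, limma adjusted p = 5.3e-05). Ccr7 had 0.931, 1.61 and 1.37 CPM in HFD_TKO, against 6.91, 2.97 and 5.84 CPM in HFD_WT. On ND, Ccr7 had 1.48, 1.11 and 0.534 CPM in ND_TKO, against 0.477, 0.692 and 1.32 CPM in ND_WT. HFD_WT replicate 2 was the lowest of its group and still above the other groups. Ccr7 differed by -1.39 (SE 0.27, limma adjusted p = 0.0013). Summed T and NK cell markers in HFD_WT were 58.2, 23.0 and 73.5 CPM in replicates 1 to 3, so replicate 2 was the lowest there too. The Ccl21 genes were not called in any comparison: Ccl21a had 56.8 to 71.1 CPM in HFD_TKO and 36.3 to 87.8 CPM in HFD_WT. Ccl21b and Ccl21c had the same value in all libraries but ND_WT replicate 1, with 394.0 CPM for Ccl21b and 394.4 CPM for Ccl21c, so the files hardly separate these copies.

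Cxcl13 and its receptor Cxcr5 organise B cells. Cxcl13 had 5.81, 0.919 and 1.46 CPM in HFD_TKO, against 44.0, 16.3 and 15.1 CPM in HFD_WT. On ND, Cxcl13 had 5.40, 3.66 and 6.13 CPM in ND_TKO, against 1.29, 58.9 and 1.87 CPM in ND_WT. The spread within groups was wide, and ND_WT replicate 2 exceeded every other library. Cxcl13 differed by -2.87 (SE 0.99, limma adjusted p = 0.034) on HFD. The call was lost with edgeR, with no filter, without any HFD_WT library and without HFD_TKO replicate 2 or 3. Cxcr5 had 0.873 to 2.05 CPM in HFD_TKO and 1.86 to 7.42 CPM in HFD_WT, with overlap at HFD_WT replicate 2. It differed by -1.29 (SE 0.41, limma adjusted p = 0.022), which was lost without HFD_WT replicate 1 or 3 or HFD_TKO replicate 2 or 3. Exons of Bcl9l overlap Cxcr5 on the other strand, and Bcl9l differed by 0.44 on HFD (limma adjusted p = 0.00016). Summed B and plasma cell markers were 9.54 to 14.4 CPM in HFD_TKO, against 276, 73.9 and 279 CPM in HFD_WT replicates 1 to 3, and 78.5 CPM in ND_WT replicate 2.

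Ccr1 and Ccr2, receptors of inflammatory CC ligands, were not called between the genotypes. Ccr1 had 7.30, 7.67 and 10.7 CPM in HFD_TKO, against 10.3, 8.28 and 7.75 CPM in HFD_WT. On ND, Ccr1 had 5.35, 6.53 and 3.65 CPM in ND_TKO, against 4.15, 8.30 and 6.53 CPM in ND_WT. Ccr1, shared by Ccl3, Ccl5, Ccl6 and Ccl9, overlapped in the HFD groups and was not called (-0.04, SE 0.24, limma adjusted p = 0.92). Ccr2 had 54.8, 38.9 and 50.6 CPM in HFD_TKO, against 54.6, 47.7 and 50.0 CPM in HFD_WT. On ND, Ccr2 had 41.5, 41.5 and 29.7 CPM in ND_TKO, against 36.9, 34.1 and 72.6 CPM in ND_WT. Ccr2, which monocytes use to answer Ccl2, also overlapped and was not called (-0.09, SE 0.24, limma adjusted p = 0.8), and ND_WT replicate 3 was far above its group. A p above the threshold does not show equal levels.

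Several receptors lay nearer the filter. Ccr1l1, a Ccr1-like gene, was near or under 3 reads in all libraries but HFD_WT, where it had 0.742 to 0.885 CPM, and its log2 difference on HFD was -0.77 (limma adjusted p = 5e-05). Xcr1, a marker of cross-presenting dendritic cells, had 1.15 to 1.63 CPM in HFD_TKO and 2.21 to 3.42 CPM in HFD_WT and differed by -0.75 (limma adjusted p = 0.01), a call edgeR did not make. Its ligand Xcl1 reached at most 0.487 CPM, with -0.37 on HFD (limma adjusted p = 0.041), lost in 10 of 19 alternatives. Ccr6, the receptor of Ccl20, had 0.0464 to 0.0918 CPM in HFD_TKO and 0.399 to 2.81 CPM in HFD_WT, with a difference of -1.16 (limma adjusted p = 0.0042). Ccr9 was not called between the genotypes. Ccr1l1, Ccr6 and Ccr9 passed the filter only through HFD_WT, so their place among the members already required a level there.

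Atypical receptors split. Ackr1 had 4.70, 3.49 and 5.48 CPM in HFD_TKO, against 10.2, 11.9 and 11 CPM in HFD_WT. On ND, Ackr1 had 3.32, 3.10 and 2.58 CPM in ND_TKO, against 4.39, 4.15 and 5.11 CPM in ND_WT. Ackr1, carried by venular endothelium, was highest in HFD_WT and differed by -1.13 (SE 0.15, limma adjusted p = 6.9e-05). Cadm3, overlapping it on the same strand, differed by -0.50 (limma adjusted p = 0.0053). Ackr4 had 14.8, 20.9 and 20.1 CPM in HFD_TKO, against 8.20, 8.81 and 6.67 CPM in HFD_WT. On ND, Ackr4 had 21.9, 24.6 and 25.4 CPM in ND_TKO, against 20.2, 20.2 and 35 CPM in ND_WT. HFD_WT was the low group here, and ND_WT replicate 3 the highest library. Ackr4, which removes Ccl19, Ccl21 and Ccl25, differed by 1.13 (SE 0.20, limma adjusted p = 0.00064), and HFD lowered it in WT by -1.51 (SE 0.20, limma adjusted p = 4.8e-05), while in TKO the difference of -0.36 (SE 0.20, limma adjusted p = 0.23) was not called. Exons of Acad11 overlap Ackr4 on the other strand, and Acad11 differed by 0.51 on HFD (limma adjusted p = 0.0015). Ackr2 had 4.93, 5.24 and 6.44 CPM in HFD_TKO, against 5.98, 6.59 and 6.32 CPM in HFD_WT. On ND, Ackr2 had 5.35, 7.18 and 5.38 CPM in ND_TKO, against 5.20, 5.53 and 8.26 CPM in ND_WT. Ackr2, a scavenger of inflammatory CC chemokines, overlapped in all groups and was called in none of the 5 comparisons.

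Apart from Ccl11, Ccl24, Ackr3 and Ackr4, the members higher in HFD_TKO were Ccl25, Ccl27a, Ccl27b and Ccr10, which are known from gut and skin homing. Ccl27a had 3.77, 6.02 and 4.84 CPM in HFD_TKO, against 3.09, 2.17 and 2.42 CPM in HFD_WT. On ND, Ccl27a had 7.06, 8.34 and 7.56 CPM in ND_TKO, against 10.6, 7.56 and 7.67 CPM in ND_WT. HFD_WT was lowest. Ccl27a differed by 0.71 (SE 0.17, limma adjusted p = 0.005) on HFD, and it was the member lowered by the diet in TKO (-0.57, limma adjusted p = 0.035), a call lost in 8 of 20 alternatives. Exons of Il11ra1 overlap Ccl27a on the other strand, and Il11ra1 averaged 63.7 ± 1.25 CPM in HFD_TKO and 70.3 ± 3.46 CPM in HFD_WT (SD, n = 3 each). Ccl27b had 3.67, 5.15 and 3.79 CPM in HFD_TKO, against 2.66, 1.90 and 2.34 CPM in HFD_WT. On ND, Ccl27b had 6.05, 8.57 and 5.91 CPM in ND_TKO, against 10.8, 6.73 and 5.61 CPM in ND_WT. Its near copy Ccl27b gave 0.65 (SE 0.21, limma adjusted p = 0.027), a call lost without HFD_WT replicate 2 or 3 or HFD_TKO replicate 2, and reads may be shared between the copies. Ccl25 had 1.91, 1.79 and 2.51 CPM in HFD_TKO, against 1.02, 0.974 and 0.953 CPM in HFD_WT. On ND, Ccl25 had 1.89, 1.30 and 1.91 CPM in ND_TKO, against 1.48, 1.75 and 2.10 CPM in ND_WT. Ccl25 differed by 0.63 (SE 0.14, limma adjusted p = 0.0031) on HFD and by -0.48 between HFD and ND in WT. Elavl1, whose exons overlap Ccl25 on the other strand, averaged 49.6 ± 3.26 CPM in HFD_TKO and 50.8 ± 0.453 CPM in HFD_WT (SD, n = 3 each). Ccr10 had 0.698, 1.19 and 0.777 CPM in HFD_TKO, against 0.469, 0.310 and 0.520 CPM in HFD_WT. On ND, Ccr10 had 0.693, 0.649 and 0.312 CPM in ND_TKO, against 0.859, 0.738 and 0.867 CPM in ND_WT. Ccr10, the receptor of Ccl27 and Ccl28, differed by 0.39 (SE 0.13, limma adjusted p = 0.033), a call lost in 4 of 20 alternatives.

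**Figure D3:**
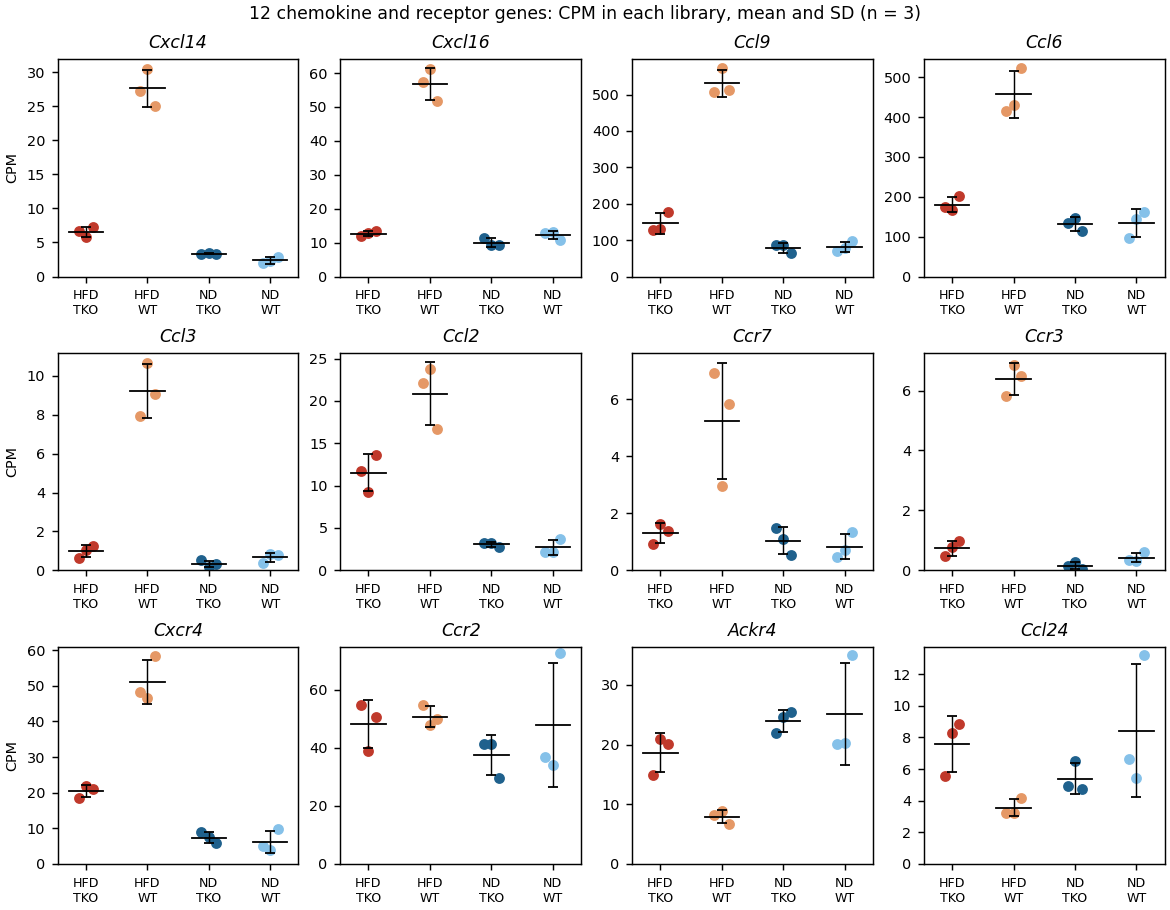
CPM of 12 members in each library, with the mean (horizontal bar) and SD (n = 3), linear axes from 0. HFD_WT is the highest group for Cxcl14, Cxcl16, Ccl9, Ccl6, Ccl3, Ccl2, Ccr7, Ccr3 and Cxcr4, overlaps for Ccr2, and is the lowest for Ackr4 and Ccl24.

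Setting the diet response of the genotypes side by side, the responses called in TKO were led by the Ccl2 run. Ccl2 rose by 1.61 (SE 0.19, limma adjusted p = 0.0011), Ccl8 by 1.58 (SE 0.39, limma adjusted p = 0.016) and Ccl7 by 1.55 (SE 0.22, limma adjusted p = 0.0017). Next came Cxcr4 with 1.37 and Ackr3 with 0.90. In WT the largest called rises were those of Cxcl14 (3.08), Cxcr4 (2.92), Ccl9 (2.71), Cxcl2 (2.7) and Ccl3 (2.62). Falls in WT were called for Ackr4 (-1.51), Ccl27a (-1.43), Ccl27b (-1.36), Ccl24 (-0.97), Ccl25 (-0.48), Ccr10 (-0.35) and Cxcl11 (-0.33). The Ccr10 call was lost in 9 of 20 alternatives and that of Cxcl11 in 12 of 19, and since Cxcl11 passed the filter only through ND_WT, its fall is a description. The count in TKO depended on single libraries, with 13 members called in all, 5 without ND_TKO replicate 3 and 8 without HFD_TKO replicate 3. Of the 13, 5 stayed called under every alternative run.

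**Figure D4:**
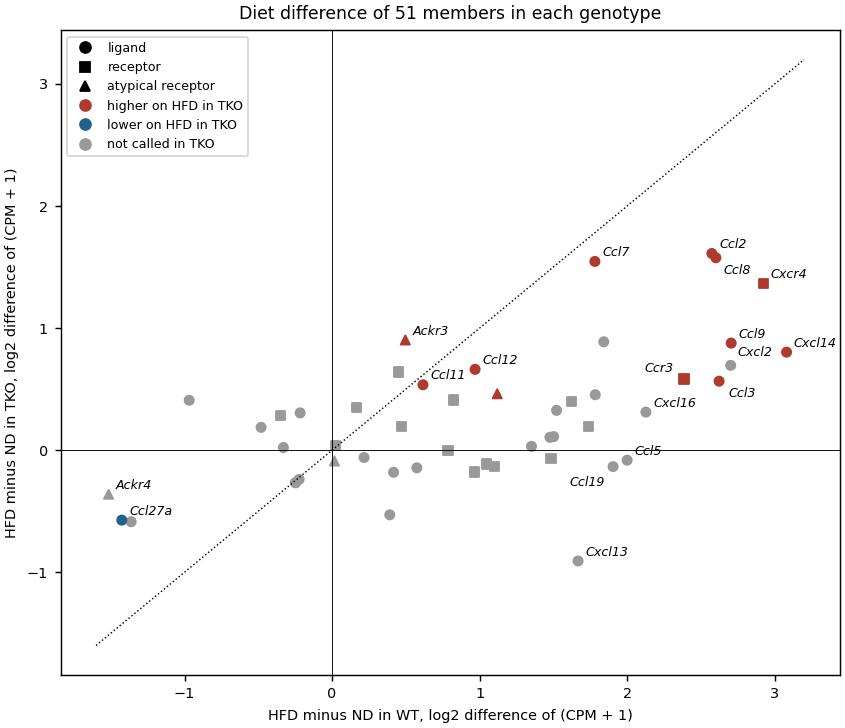
HFD minus ND log2 difference of (CPM + 1) in WT (x axis) and in TKO (y axis) for 51 members, with the shape giving the role and the colour the call in TKO. The dotted line marks equal responses: Ccl7 and Ccl11 lie near it, and Cxcl14, Ccl9, Ccl3 and Ccl5 lie far below it.

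Ccl22 and Ccl17 are ligands of Ccr4, and with Cx3cl1 they form a run on chromosome 8. Ccl22 had 1.49 to 2.57 CPM in HFD_TKO and 4.51 to 5.19 CPM in HFD_WT and differed by -0.97 on HFD (limma adjusted p = 0.0075). Ccl17 and Ccr4 were not called in any comparison, and Ccr4 stayed at or under 0.320 CPM. Ccl28 was not called either, but it set 4 libraries apart, with 3.63 CPM in HFD_TKO replicate 2, 4.07 CPM in HFD_WT replicate 3, 4.08 CPM in ND_TKO replicate 2 and 3.43 CPM in ND_WT replicate 1. The epididymis gene Adam7 was highest in the same 4 libraries, with 0.414 CPM in HFD_TKO replicate 2, 0.520 CPM in HFD_WT replicate 3, 3.29 CPM in ND_TKO replicate 2 and 3.0 CPM in ND_WT replicate 1. The other 5 epididymis markers were under 0.2 CPM in every library. Ccl21a, Ccl21b and Ccl21c had the same 4 highest libraries as Ccl28. So did the lymphatic marker Prox1, with 1.52 CPM in HFD_TKO replicate 2, 1.9 CPM in HFD_WT replicate 3, 2.6 CPM in ND_TKO replicate 2 and 1.38 CPM in ND_WT replicate 1. The lymphatic markers Flt4, Pdpn and Lyve1 did not. The part of epididymis or lymphatic RNA in Ccl28 and the Ccl21 genes was not tested.

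**Figure D5:**
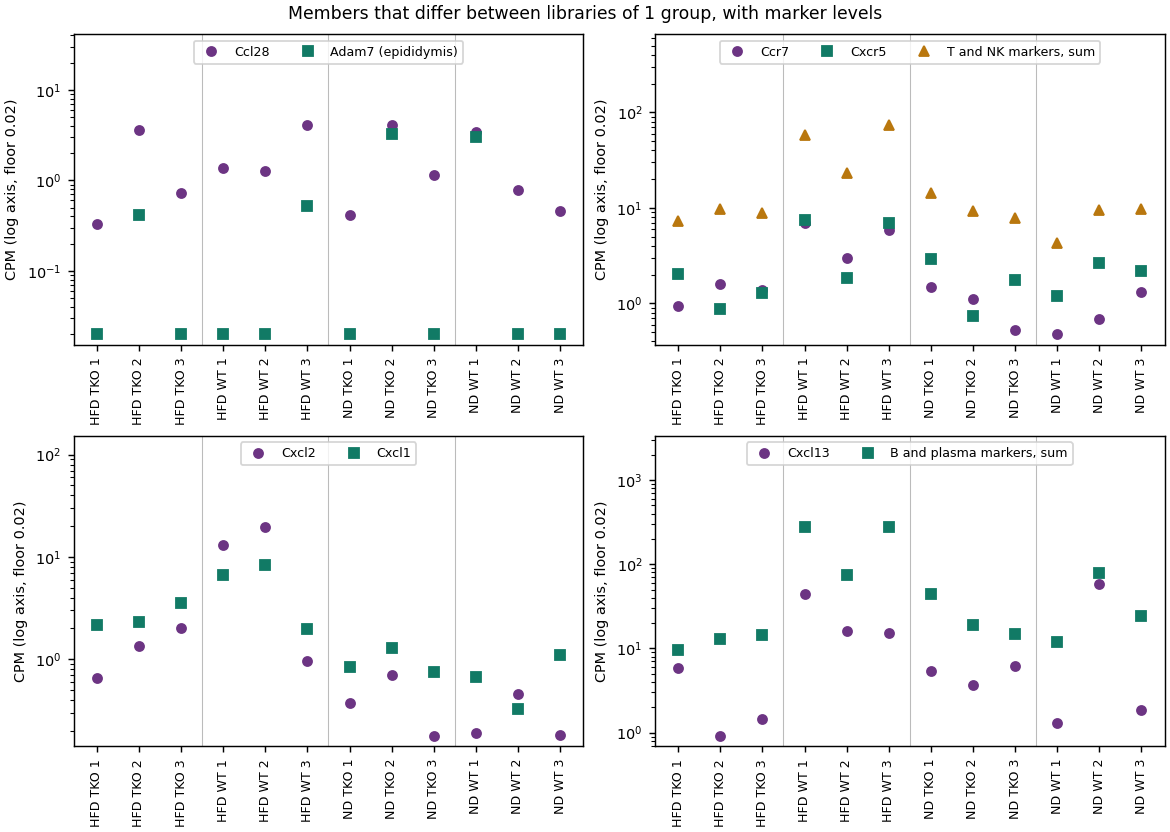
CPM per library on log axes for members that vary within groups, with marker levels beside them. Ccl28 and Adam7 share their 4 highest libraries, Ccr7 and Cxcr5 are lowest of HFD_WT in replicate 2 as are T and NK markers, Cxcl1 and Cxcl2 drop together in HFD_WT replicate 3, and Cxcl13 peaks in ND_WT replicate 2. Values under 0.02 CPM are drawn at 0.02.

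On HFD, genes that act with the receptors were also mostly lower in TKO. Of 30 genes of signalling downstream of chemokine receptors, 25 were lower and none higher in HFD_TKO than in HFD_WT, beside 30.1% of all genes lower and 14.2% higher, with a median log2 difference of -1.05, against -0.10 over all genes. Rgs18, a regulator of G-protein signalling, averaged 4.77 ± 0.278 CPM in HFD_TKO and 34.8 ± 3.38 CPM in HFD_WT (SD, n = 3 each) and differed by -2.63 (SE 0.11, limma adjusted p = 3.7e-08). Vav1 and Dock2, exchange factors for Rac in moving leukocytes, differed by -2.41 and -2.46. In WT the diet raised 26 of the 30, beside 36.0% of all genes, and in TKO 13, beside 14.7%, with 1 lowered in TKO. On ND 2 were higher and none lower in TKO.

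Among 18 tested genes of leukocyte adhesion and homing, 13 were lower and none higher in HFD_TKO (median -1.04), beside the same 30.1% and 14.2% of all genes. Icam1, an endothelial and leukocyte adhesion molecule, averaged 17.4 ± 1.05 CPM in HFD_TKO and 50.7 ± 4.84 CPM in HFD_WT (SD, n = 3 each). Itgb2, the shared chain of the leukocyte integrins, and Cd44, which binds hyaluronan, differed by -2.38 and -2.03. Of 10 related chemoattractant genes outside the naming rule, 5 were lower and none higher (median -0.41), beside the same 30.1% and 14.2% of all genes. This list is short, and no test was made over it. Pf4, the platelet chemokine, averaged 24.7 ± 2.56 CPM in HFD_TKO and 76.5 ± 1.95 CPM in HFD_WT (SD, n = 3 each), and Ccrl2 and Cd74 differed by -1.52 and -1.34. On ND 1 adhesion gene was higher in TKO and 2 of the related genes were lower.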

How the data were processed

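RNA-seq values of eWAT came as 1 table of CPM for 12 libraries that the authors deposited, with CPM units per the file headers. The submitters' processing notes name STAR 2.7.3a, featureCounts 2.0.0, DESeq2 and the mm10 build, without roles. The annotation, strand use and treatment of multi-mapped reads are not given in the sources used here. The CPM steps gave whole reads for 100.0% of values (within 0.05 of a read, after an offset of 0.01), so depth was known: 20973140 to 25606629 reads. Intervals and the floor of 3 reads cover counting error only. No value columns were left unused. The 3 rows with no gene symbol held 0.0314% to 0.0679% of CPM and were left out.

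Genes with at least 0.2 CPM in at least 3 libraries were tested with limma 3.58.1 (trend) on log2(CPM + 1), 12 libraries in 1 fit with a mean per group and 8 residual degrees of freedom, Benjamini-Hochberg adjusted over 16735 genes at 0.05. Such fold changes understate changes of low genes. The scripts were tested on simulated data. Alternatives, with edgeR 4.0.16 and DESeq2 1.42.0 on the recovered reads among them, were TMM scaling, a pseudocount of 0.25, a filter of 0.5 CPM, no filter, only the groups compared, a replicate block and leaving out each library. Replicates differed by more than sampling noise (chi-square per degree of freedom 6.06 to 69.7). P-values measure the spread between these libraries.

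Members and gene lists were chosen with earlier results of these data known. Values in every library were given for a fixed panel and for the 5 called members with the largest change in each direction of each contrast. Of the pathway lists, the 3 genes with the smallest adjusted p in each direction on HFD were named. Exon overlaps were read from GENCODE M21 and promoters from RefSeq. The counts include 1 member that is not reported here by name, and the figures show the other 51.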

Additional observations from a re-analysis of the deposited data

Results flagged for a closer look

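The diet response (HFD minus ND) differed between TKO and WT for 27 members by the interaction term of the limma fit, of which 26 are given here. These interaction values are log2 differences, the TKO response minus the WT response, and HFD and ND libraries of each genotype enter them. Among CC ligands, the value was -2.08 for Ccl5, -2.06 for Ccl3, -2.04 for Ccl19, -1.83 for Ccl9, -1.39 for Ccl4, -1.33 for Ccl6, -1.20 for Ccl22 and -0.96 for Ccl2. Other ligands with a negative value were Cxcl14 at -2.28, Cxcl16 at -1.82, Cxcl10 at -1.37 and Cx3cl1 at -1.32. Receptors with a negative value were Ccr3 at -1.80, Cxcr4 at -1.56, Ccr7 at -1.55, Cxcr3 at -1.55, Cxcr6 at -1.23, Cx3cr1 at -1.22, Ccr6 at -1.16 and Ccr1l1 at -0.79, with the atypical Ackr1 at -0.66. Ccr6 and Ccr1l1 passed the filter only through HFD_WT, so their membership already required a level there and their values are a description. The positive interaction values were 1.38 for Ccl24, 1.15 for Ackr4, 0.85 for Ccl27a, 0.67 for Ccl25 and 0.63 for Ccr10. In all, 17 of the 27 stayed called under every alternative run. Ccr3, Ccl4 and Ccr1l1 lost the call with edgeR and with DESeq2, Ccr6 lost it in 11 of 18 alternatives. Of 19 alternatives, Ackr1 lost the call in 14, Ccl22 in 8, Ccr10 in 5, Ccl2 and Ccl27a in 4 each and Ccl25 in 3.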

How the results depend on the processing

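None of the members' called differences changed sign under the alternatives (a sign was compared where the main fit or the alternative made a call). Of the calls, 26 of 37 between TKO and WT on HFD and 34 of 38 between HFD and ND in WT were kept under every alternative run, but 5 of 13 between HFD and ND in TKO. With 1 library left out, the members called ranged from 0 to 4 between TKO and WT on ND, 28 to 38 on HFD, 35 to 37 between diets in WT, 5 to 15 in TKO and 21 to 28 for the interaction. On ND, DESeq2 called 1. The ligand minus receptor difference of medians was 0.69 with a pseudocount of 0.25 and 0.34 with a filter of 0.5 CPM, and 0.074 to 0.66 with 1 library left out. The causes were not tested. Replicate numbers did not pair the libraries: same-numbered libraries correlated between -0.489 and 0.553 in their deviations, and 3 of 12 libraries correlated best with their own number. With a replicate block the members called were 35 between TKO and WT on HFD, 37 between diets in WT, 11 in TKO, 27 for the interaction and 0 on ND. Chosen after seeing the data, counts without the Ccl21 and Ccl27 copies were 35, 36, 12, 26 and 0 in the same order, and without the 5 members that passed the filter through 1 group or genotype 35, 34, 13, 25 and 0. The ligand minus receptor difference was 0.19 without these copies and 0.48 without those 5. Depth limits the low members: 3 reads are worth at most 0.143 CPM, and differences below that were not detectable.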

Other observations

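The 10 symbols under the filter entered no comparison. Ccr8, a receptor of mouse Ccl8, had 0.352, 0.178 and 0.174 CPM in HFD_WT and at most 0.0461 CPM in HFD_TKO, which is 1 read. The neutrophil receptor Cxcr2 had at most 0.0935 CPM in HFD_TKO, 0.174 to 0.235 CPM in HFD_WT, at most 0.371 CPM in ND_TKO and at most 0.139 CPM in ND_WT. Ccl1, Ccl26, Cxcl3, Cxcl15, Cxcl17 and Cxcr1 were under 0.2 CPM in every library. Cxcl5 was above it only in ND_WT replicate 2, with 0.231 CPM. Ccl20, the ligand of Ccr6, had no read in any library, which allows up to 3 reads or 0.117 to 0.143 CPM per library.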
